A study of Mus musculus with 12 samples.

Results

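In 3 of the 12 colon RNA-Seq libraries, Hoxb13 was almost absent, and these 3 were set against the other 9. The 3 Hoxb13-low libraries were control 3, model 3 and Rhy 1. They were chosen by a measured value, a Hoxb13 level under 5 CPM, where CPM is the count of a gene scaled to a library total of 1000000 counts. The 9 Hoxb13-high libraries were control 1 and 2, model 1 and 2, Rhy 2 and 3, and all 3 libraries of the DXM group. The study examined rhynchophylline (Rhy), a plant alkaloid, in mice with colitis from dextran sodium sulfate (DSS), which damages the lining of the colon. The labels describe every mouse as a wild-type C57BL/6J male of 5 weeks. The control group received no DSS, the model group received DSS, the Rhy group received Rhy with DSS, and the DXM group received the glucocorticoid dexamethasone at 4 mg/kg with DSS, with 3 libraries in each group. The labels do not say that each library came from a mouse of its own, so p-values measure the spread between these libraries. The labels do not tie a Rhy dose to the sequenced mice. They say that pieces of colon were taken for RNA and do not say from which position, so position was not a label here, and the sides are called by their Hoxb13 level.

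Hox genes encode homeodomain transcription factors that mark positions along the body axis. Their order along each chromosome cluster follows the order of their domains from head to tail, and the genes numbered 9 to 13 are the posterior ones. In the adult gut, Hoxb13 and Hoxd13, the last genes of the Hoxb and Hoxd clusters, are known for high expression in the rectum and distal colon and little expression further up. Since the split is a reading of Hoxb13, the levels of both genes are given as a description and were not tested.

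The count table places Hoxb13 at chr11:96194316-96197447 (+) and Hoxd13 at chr2:74668310-74671599 (+) on mm10. Hoxb13 was at 0.181 CPM in control 3, 1.51 CPM in model 3 and 0 CPM in Rhy 1, which are 3, 25 and 0 counts. In the Hoxb13-high libraries it ranged from 62.9 to 306 CPM with a median of 228. The libraries nearest the limit of 5 CPM were model 3 below it, at 1.51 CPM, and control 2 above it, at 62.9 CPM, so no library lay near the limit. Hoxd13 was at 0 CPM in control 3, 0.0606 CPM in model 3 and 0.279 CPM in Rhy 1. It was at 4.72 CPM in control 1 and at 27.1 to 196 CPM in the other Hoxb13-high libraries. Both genes thus split the libraries in the same place, although control 1 had the lowest Hoxd13 level of the high side while its Hoxb13 level was 132 CPM.

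**Figure D1:**
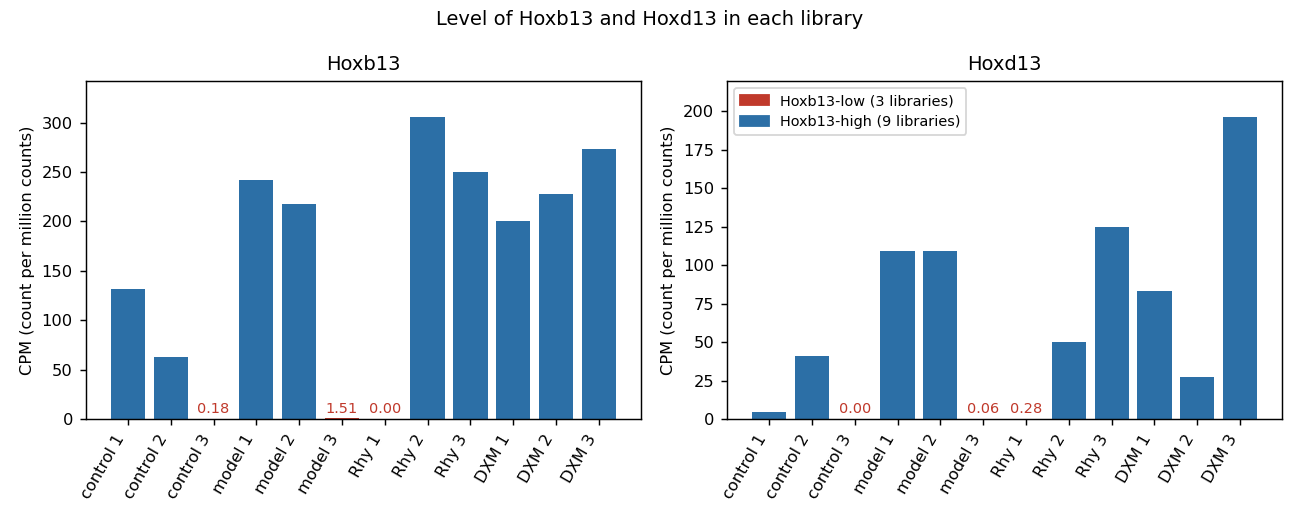
Bars give the CPM of Hoxb13 (left) and Hoxd13 (right) in each of the 12 libraries, red for the 3 Hoxb13-low and blue for the 9 Hoxb13-high libraries, with the values of the low libraries written in. Hoxb13 was 0 to 1.51 CPM in the low libraries and 62.9 to 306 CPM in the others.

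The 3 low libraries did not stand apart in depth. Their total counts were 14346478 to 16601454, against 15544386 to 17749716 on the high side. Counts on mitochondrial genes took 6.33%, 11.1% and 23.8% of the low libraries and 7.48% to 25.7% of the high libraries. The number of genes with a count was 19477 to 21367 in the low and 21251 to 23468 in the high libraries, with Rhy 1 the lowest of all 12. The part of this lower gene number in the results below was not tested. The libraries model 1 and model 2 were far more alike than any others. Their common dispersion, edgeR's measure of variance between libraries beyond counting noise, was 0.00201, against 0.0604 to 0.262 in the other 35 pairs within the high side. The difference between them was nevertheless above counting noise: 16.5% of 16106 genes passed a chi-square limit that 5% of Poisson counts pass. Whether they came from separate mice is not given in the labels and cannot be told from the counts. Both were kept, and counts of genes are also given with the counts of model 1 and model 2 summed into 1 library. The labelled tissue was checked on a list of 10 colon epithelium genes. All 10 passed the filter, none was called between the sides, and their summed level was 20127 to 26927 CPM in the low libraries and 9873.5 to 29242 CPM in the high libraries. Of 16 small intestine genes, 9 passed the filter. None was called, and their summed level was 1214.5 to 1478 CPM in the low and 127 to 2582 CPM in the high libraries. Fabp2 had the highest mean of these genes, at 984 CPM in the low and 516 CPM in the high libraries. Single members varied widely within the high side. Apoa1 had a median of 0.447 CPM and a maximum of 500 CPM there, and Fabp6 9.71 and 351 CPM. In the low libraries Apoa1 reached 0.301 CPM and Fabp6 6.27 CPM. The part of small intestine tissue in these values was not tested. In bulk tissue, fewer cells of a type and less RNA per cell cannot be told apart.

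Other Hox genes were read for the same pattern. Of 16 posterior Hox genes, 11 passed the filter, and apart from Hoxb13 and Hoxd13, which were not tested, none was called. Hoxd12, the neighbour of Hoxd13, was at 0 CPM in control 3, 0.0606 CPM in model 3 and 0.488 CPM in Rhy 1. In the high libraries Hoxd12 was at 0.766 to 9.92 CPM with a median of 2.89. The sides of Hoxd12 did not overlap, and its log2 fold change of -4.28 ± 0.92 (SE) gave an adjusted p of 0.0513 by the quasi-likelihood test of edgeR. The pattern did not extend to the third gene numbered 13 that passed the filter. Hoxa13, the last gene of the Hoxa cluster, was at 27.1 to 31.6 CPM in the low libraries, inside the 12.0 to 61.4 CPM of the high libraries.

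Further along the clusters, 3 of the 16 anterior and central Hox genes tested lay above every high library on the low side, and none of the 16 was called. Hoxb8 was at 30.5 CPM in control 3, 25.8 CPM in model 3 and 34.2 CPM in Rhy 1, against 0.128 to 17.3 CPM (median 5.72) on the high side. Hoxb7 was at 21.2 to 28.2 CPM in the low and 0.946 to 14.3 CPM in the high libraries. Hoxd8 was at 10.3 to 16.6 CPM in the low and 1.21 to 8.71 CPM in the high libraries. The adjusted p was 0.334 for Hoxb8, 0.270 for Hoxb7 and 0.163 for Hoxd8. The background for such separation was 1.69% of the 16904 genes tested with the low side above every high library, and 4.35% with the low side below. The median log2 fold change, low against high, was 0.34 over the 16 anterior and central Hox genes, -0.18 over the 9 posterior Hox genes other than Hoxb13 and Hoxd13, and -0.02 over all genes tested.

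**Figure D2:**
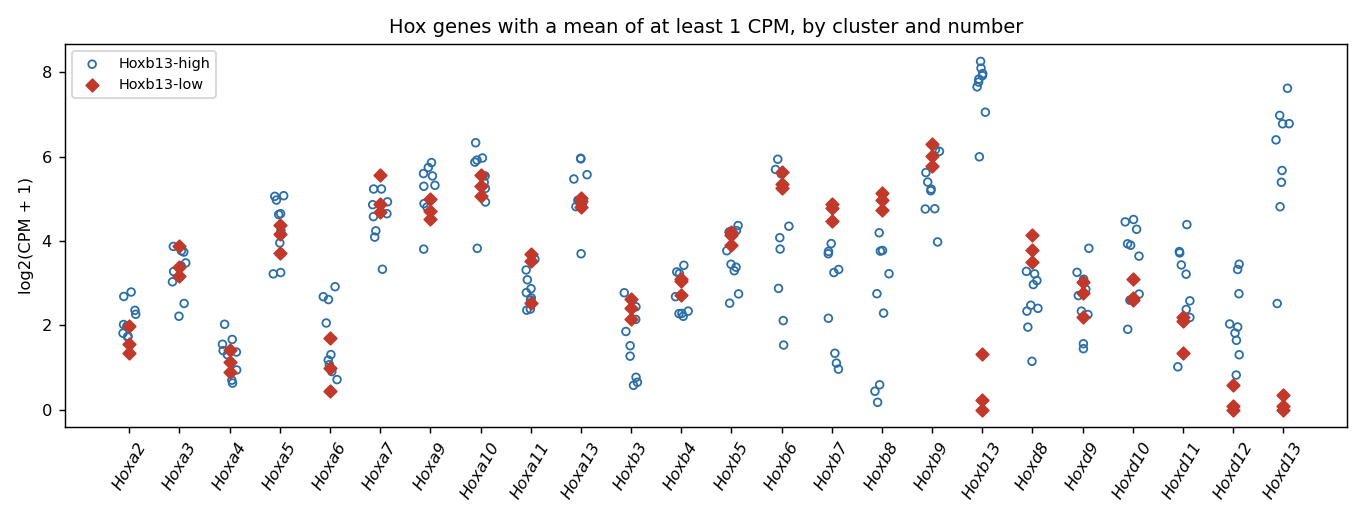
Each column is a Hox gene with a mean of at least 1 CPM over the 12 libraries, in the order of the Hoxa, Hoxb and Hoxd clusters, and the axis gives log2(CPM + 1). Red diamonds are the 3 Hoxb13-low and blue circles the 9 Hoxb13-high libraries; the sides part at Hoxb13, Hoxd12 and Hoxd13 with the low libraries below, and at Hoxb7, Hoxb8 and Hoxd8 with the low libraries above.

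The chromosomal neighbours of Hoxb13 and Hoxd13 were then examined. Within 100 kb of Hoxb13, 12 other genes were tested and 4 were called lower in the low libraries, and within 100 kb of Hoxd13, 11 were tested and 1 was called lower. Over all genes, 0.988% were called lower and 0.166% higher at an adjusted p under 0.05. The gene next to Hoxd13 was Evx2, an even-skipped homeobox gene that lies at the end of the Hoxd cluster. Evx2 had 0 counts in each low library and was at 0.319 to 6.57 CPM (median 4.54) in the high libraries. It was thus at least 61.5-fold higher on the high side, computed against a limit of 3 counts over the 3 low libraries together. Upstream of Hoxb13 on the same strand, Ttll6, a tubulin glutamylase, was at 11.3 CPM in control 3, 4.97 CPM in model 3 and 8.09 CPM in Rhy 1. On the high side Ttll6 was at 13.8 to 55.5 CPM (median 34.1), with a log2 fold change of -2.00 ± 0.39 (adjusted p = 0.0386). The other 3 neighbours called lower were the gene models Gm11535, Gm27898 and Gm27605. Gm11535 and Gm27898, like Evx2, had 0 counts on the low side, and Gm27605 had 5. These genes passed the filter through the high libraries and could only be called lower, so the counts of neighbours are a description. Gm27898 and Gm27605 lie 2303 and 2728 bases past the end of Hoxb13 and are annotated on its opposite strand, so without a stated strand setting their reads and those of Hoxb13 transcripts cannot be told apart.

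The bases upstream of Hoxd13 and Evx2 are shown because these genes lie 8752 bases apart on opposite strands and had the same split. Each is the 250 bases before the annotated start in RefSeq on GRCm38.p6, 5′ to 3′ on the gene's own strand, at chr2:74667975-74668224 (+) for Hoxd13 and chr2:74659558-74659807 (-) for Evx2. The capitals mark CAATAAA, a motif bound by posterior Hox proteins, searched on both strands.
Hoxd13: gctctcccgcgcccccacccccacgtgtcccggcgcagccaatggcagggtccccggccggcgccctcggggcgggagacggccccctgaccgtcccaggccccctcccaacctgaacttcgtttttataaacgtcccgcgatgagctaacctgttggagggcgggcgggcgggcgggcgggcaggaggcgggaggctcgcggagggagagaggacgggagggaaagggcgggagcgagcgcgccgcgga
Evx2: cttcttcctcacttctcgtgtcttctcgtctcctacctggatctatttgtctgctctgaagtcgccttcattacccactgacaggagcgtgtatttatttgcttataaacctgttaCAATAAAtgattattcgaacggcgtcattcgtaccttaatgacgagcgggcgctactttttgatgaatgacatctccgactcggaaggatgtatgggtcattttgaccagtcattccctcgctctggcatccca
The letters CAATAAA occurred 1 time in the Evx2 window and 0 times in the Hoxd13 window. They were present in 6 of 103 matched promoters of genes called lower (5.83%), in 0 of 16 of genes called higher, in 2.83% of 11948 promoters of genes tested and in 4.84% of all 27025 promoters of the table. A second spelling, CTCGTAAA, was in 0 of the 103 and in 0.148% of all promoters. These shares were counted over the whole promoter entry of each gene, which was not cut to 250 bases like the windows shown. A match describes the letters and not a bound site.

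Across all genes, 195 of the 16904 tested differed between the sides at an adjusted p under 0.05, with the treatment group as a covariate. Of these, 167 were lower (0.988%) and 28 were higher (0.166%) in the Hoxb13-low libraries, not counting Hoxb13 and Hoxd13. Because a measured value set the sides, the adjusted p orders the genes by how closely they followed the split and is not a test of a labelled condition. At least 4-fold differences made up 100 of the 167 and 9 of the 28, and 124 of the 167 and 26 of the 28 were protein coding. At an unadjusted p under 0.05, 1828 genes were lower and 1112 higher.

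The number of genes called depended on single libraries and on how the near-identical libraries of the model group were counted. With model 1 and model 2 summed, 15 genes were called lower and 0 higher in edgeR's quasi-likelihood test, with 1628 lower and 823 higher at an unadjusted p under 0.05; DESeq2 on all 12 libraries called 296 higher. All 15 were among the 195. Without control 3, 12 genes were lower and 1 higher, and without control 2, 367 were lower and 224 higher. Without model 1 or model 2, 15 were lower in each case and 1 or 0 higher. The count of lower genes was 65 without Rhy 1, 82 without Rhy 2, 82 without Rhy 3 and 88 without DXM 3. The count of higher genes was 18 without model 3, 9 without Rhy 2 and 11 without Rhy 3. The direction held more often than the call, which follows in part from the choice of the 195 genes by the same contrast. Each of the 195 genes kept its sign in all 24 alternatives that held it, 9 genes were called under all 24, and 186 lost the call under at least 1. The 9 were Atp12a, AI854703, Casp14, Defb45, Ermap, Foxq1, Fut9, Tgm3 and Vsig1, all lower on the low side.

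Control 3, model 3 and Rhy 1 each stood against libraries of their own treatment group. For 194 of the 195 genes, the low library lay on the same side of both other libraries of its group in the control, model and Rhy groups. The exception was Slc25a36. The full ranges of the sides did not overlap for 155 of the 167 genes lower and 23 of the 28 genes higher. These shares follow in part from the choice of genes by the same contrast.

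**Figure D3:**
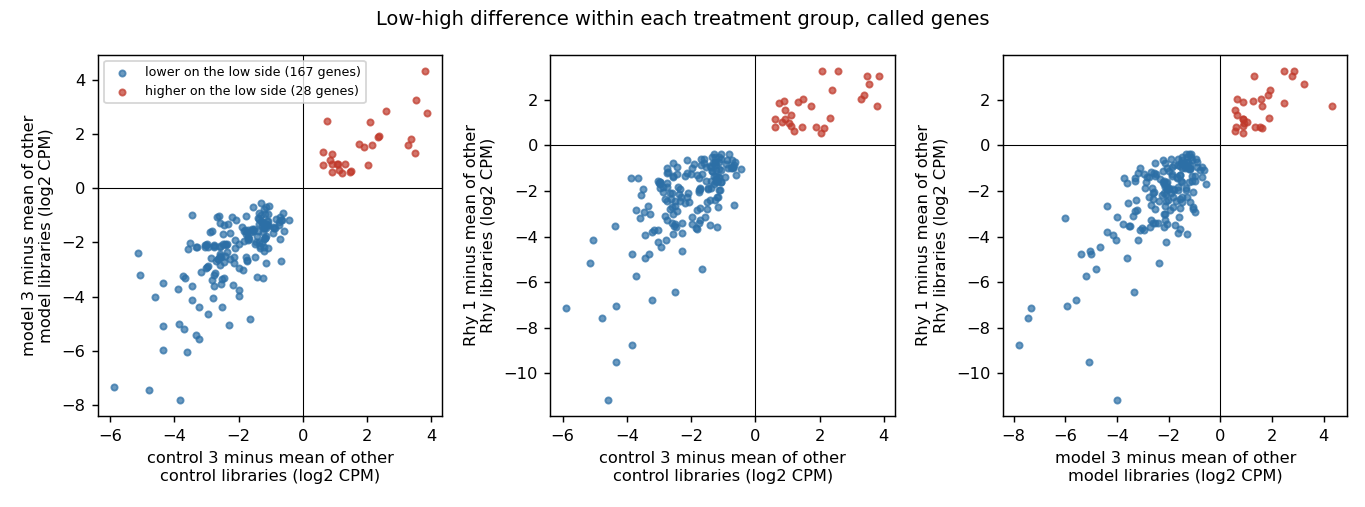
Each point is 1 of the 195 genes, and each axis gives the log2 CPM of the low library minus the mean of the other libraries of its treatment group, for control 3, model 3 and Rhy 1 in pairs. The 167 genes lower on the low side (blue) lie below 0 on every axis and the 28 genes higher (red) lie above 0.

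The named genes are ordered by what their products are known to do. This order was made with their values known, and no such grouping was tested. The transport protein Atp12a had the smallest adjusted p, a value it shared with AI854703. Atp12a encodes the catalytic subunit of the non-gastric proton-potassium ATPase, which takes up potassium across the apical membrane of the colon. The count table places Atp12a at chr14:56365068-56388550 (+) on mm10. It was at 1.14 CPM in control 3, 1.39 CPM in model 3 and 1.60 CPM in Rhy 1. In the high libraries Atp12a was at 59.2 to 498 CPM with a median of 209. The sides were far apart, with a log2 fold change of -6.99 ± 0.49 and an adjusted p of 0.000197. Fxyd4, a corticosteroid-induced regulator of the sodium-potassium pump, had 0 counts in all 3 low libraries. It was at 0.575 to 284 CPM (median 29.4) in the high libraries. Its level on the high side differed by group, from 0.575 and 3.22 CPM for control 1 and 2 to 28.2 and 29.4 CPM for model 2 and 1, 21.2 and 133 CPM for Rhy 2 and 3, and 54.5 to 284 CPM for DXM, which has no low library. Slc28a3, a concentrative nucleoside transporter, was at 0.139 to 0.482 CPM in the low and 1.46 to 9.92 CPM in the high libraries, a log2 fold change of -4.20 ± 0.67. The phosphate transporter Slc20a1, chosen after its values were seen, was at 72.8 to 142 CPM in the low and 179 to 524 CPM in the high libraries. Of the 29 ion and water transport genes tested, only Fxyd4 and Atp12a were called, and the median log2 fold change of the list was 0.21, also with the level of Fxyd4 on the low side set to the limit of 3 counts. The call of Fxyd4 held in 17 of 24 alternatives.

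The 15 largest falls also held Casp14, Gjb5 and Vsig1. Casp14, a protease of epidermal cornification, had 0 counts in the low libraries and was at 1.02 to 31.1 CPM (median 8.64) in the high libraries, at least 181-fold higher. Tgm3, a transglutaminase that cross-links proteins of hair and epidermis, was at 38.2 CPM in control 3, 10.4 CPM in model 3 and 19.9 CPM in Rhy 1, against 139 to 942 CPM on the high side (median 378). Its log2 fold change was -4.10 ± 0.54 (adjusted p = 0.0125). Gjb5, a connexin of gap junctions, was at 0.139 to 0.909 CPM in the low and 4.78 to 19.5 CPM in the high libraries, a log2 fold change of -4.33. Vsig1, an immunoglobulin-domain junction protein of gastric epithelium, was at 0.279 to 0.848 CPM in the low and 3.89 to 16.9 CPM in the high libraries, a log2 fold change of -4.19 ± 0.43. Of 7 tested genes of a list for keratinised or anal squamous epithelium, none was called, the list median was -1.04, and its summed level was 162 to 254 CPM in the low and 149 to 357 CPM in the high libraries. Most of this sum was Sfn, with means of 188 CPM in the low and 197 CPM in the high libraries. The sum therefore says little about the other members. Each of the 7 had a log2 fold change below 0, with Sfn at -0.13. Krt13 was at 0 to 0.120 CPM in the low and 0.338 to 6.50 CPM in the high libraries, so its sides did not overlap. Krt14 reached 2.58 and 15.4 CPM, with sides that overlapped. The part of such epithelium in the falls of Casp14 and Tgm3 was not tested. Tgm3 was chosen after its values were seen.

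Defb45, Slpi and Sval1 were among the 15 largest falls as well. Defb45, a beta-defensin, was at 0.0602 CPM in control 3, 0.121 CPM in model 3 and 0.0697 CPM in Rhy 1, against 1.72 to 20.7 CPM on the high side (median 9.26). Its log2 fold change was -6.15 ± 0.56 (adjusted p = 0.00113). Slpi, a secreted inhibitor of leukocyte proteases, was at 3.98 CPM in control 3, 4.36 CPM in model 3 and 0.0697 CPM in Rhy 1, against 25.5 to 324 CPM (median 162). Slpi had a log2 fold change of -5.77 ± 0.95. Its relative Wfdc2, which shares the whey acidic protein domain, was at 62.9 to 87.5 CPM in the low and 92.6 to 359 CPM in the high libraries, a log2 fold change of -1.50. Sval1 was at 0 to 7.57 CPM in the low and 56.0 to 1147 CPM in the high libraries, with an adjusted p of 0.0495, just under the threshold. A list of 20 tested antimicrobial and host defence genes had 0 called and 16 with a log2 fold change below 0. Its median was -1.11, against -0.02 over all genes, and its summed level overlapped, at 8746 to 12482 CPM in the low and 8167 to 17413 CPM in the high libraries. The cytokine genes Ccl20, a chemokine that draws CCR6-bearing lymphocytes, and Il1rn, the interleukin-1 receptor antagonist, had log2 fold changes of -2.19 ± 0.38 and -1.56 ± 0.27. Wfdc2, Ccl20 and Il1rn were chosen after their values were seen.

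Several enzymes were called lower. Cps1, which starts the urea cycle, had 0 counts in the low libraries and was at 0.255 to 31.0 CPM (median 5.75) in the high libraries. The highest value of Cps1 came from Rhy 3, and the other high libraries were at 6.70 CPM or less. Eno3, the muscle-type enolase of glycolysis, was at 30.7 to 42.2 CPM in the low and 146 to 424 CPM in the high libraries, a log2 fold change of -2.73 ± 0.34. Fut9, a fucosyltransferase that makes the Lewis x antigen, was at 0.697 to 1.87 CPM in the low and 5.11 to 40.6 CPM in the high libraries. Adh1, an alcohol and retinol dehydrogenase, was at 247 CPM in control 3, 274 CPM in model 3 and 272 CPM in Rhy 1, against 437 to 1729 CPM (median 816). Adh1 had a log2 fold change of -1.45 ± 0.22, and Gstm1, a glutathione transferase of drug metabolism, had -0.93 ± 0.19 with sides that overlapped. Of the 38 steroid and drug metabolism genes tested, Adh1 and Gstm1 were lower and Sult1a1 was higher, and the list median was 0.46. Gstm1 belongs to a family of near-identical genes, and its counts are uncertain for that reason. Eno3 and Fut9 were chosen after their values were seen.

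Further genes of the 15 largest falls were Ermap, AI854703, Nccrp1 and Ttr. Ermap, a membrane protein of the butyrophilin family, had 2 counts in the low libraries together. The ratio of high over low was 723, with an exact 95% counting interval of 200.1 to 5967. AI854703 was at 1.46 to 1.76 CPM in the low and 16.7 to 109 CPM in the high libraries, a log2 fold change of -4.63 ± 0.33 and an adjusted p of 0.000197. Nccrp1 had 3 counts on the low side, and its ratio of high over low was 51.7 (17.7 to 251). Ttr, the carrier of thyroxine and retinol, was at 0.139 to 0.545 CPM in the low and 1.21 to 29.7 CPM in the high libraries. All 4 had sides that did not overlap. Such intervals cover counting error only.

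A few regulators were called lower. Foxq1, a forkhead transcription factor, was at 2.11 CPM in control 3, 3.88 CPM in model 3 and 2.79 CPM in Rhy 1, against 4.47 to 16.9 CPM on the high side (median 12.9). Its log2 fold change was -1.82 ± 0.21 (adjusted p = 0.00684). Tbx6, a T-box factor of the early mesoderm, was at 0 to 0.242 CPM in the low and 0.378 to 3.26 CPM in the high libraries. Sfrp2, a secreted antagonist of Wnt ligands, was at 0.424 to 1.05 CPM in the low and 1.85 to 16.8 CPM in the high libraries, a log2 fold change of -2.95 ± 0.47. Sfrp2 was the only 1 of 24 tested genes for stromal signals of the crypt niche that was called, and the median of that list was -0.21. Edn1, the vasoconstrictor endothelin-1, had a log2 fold change of -2.06 ± 0.33, with sides that overlapped. Foxq1, Tbx6 and Edn1 were chosen after their values were seen.

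**Figure D4:**
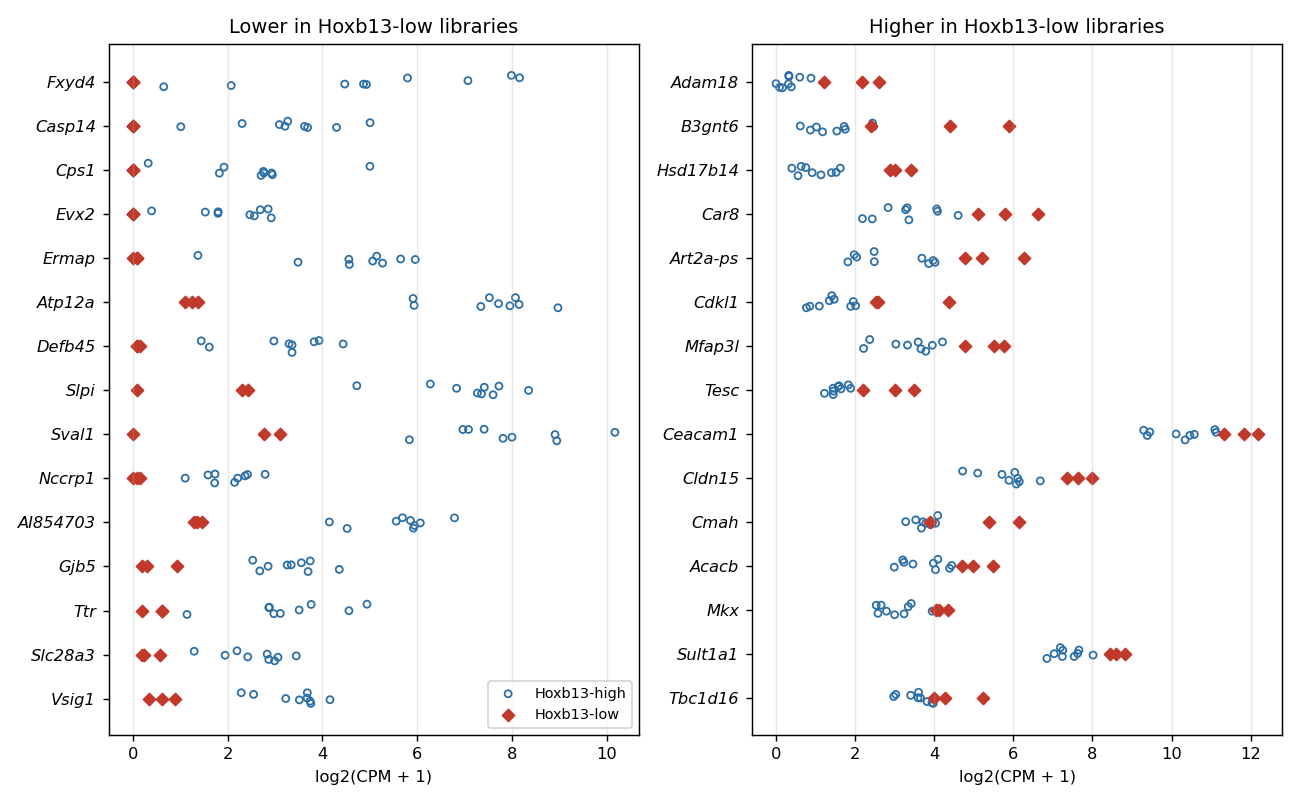
The 15 genes with the largest falls (left) and the 15 with the largest rises (right) among named genes with an adjusted p under 0.05, as log2(CPM + 1) in each library; red diamonds are the 3 Hoxb13-low and blue circles the 9 Hoxb13-high libraries. Atp12a lies at 1.14 to 1.60 CPM in the low and 59.2 to 498 CPM in the high libraries, and the sides overlap only for B3gnt6 and Cmah.

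The 28 genes higher on the low side were fewer, and none was called with model 1 and model 2 summed. Ceacam1, a cell adhesion molecule of the epithelial apical surface, was at 4689 CPM in control 3, 3645 CPM in model 3 and 2582 CPM in Rhy 1. On the high side Ceacam1 was at 628 to 2232 CPM with a median of 1298, so the sides did not overlap, and the log2 fold change was 1.73 ± 0.32 (adjusted p = 0.0339). It overlaps 4732471J01Rik, which is annotated on the opposite strand and was called lower, and it has a close paralog, so its counts are uncertain where reads are shared. Cldn15, a tight junction claudin that forms pores for sodium, was at 252 CPM in control 3, 197 CPM in model 3 and 163 CPM in Rhy 1, against 25.3 to 102 CPM (median 64.7). Cldn15 had a log2 fold change of 1.69 ± 0.31. Car8, a carbonic anhydrase-related protein without enzyme activity, was at 33.6 to 97.9 CPM in the low and 3.55 to 23.3 CPM in the high libraries, a log2 fold change of 2.52.

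Several enzymes were called higher. B3gnt6 makes the core 3 chains of mucin O-glycans in the colon. It was at 58.2 CPM in control 3, 19.9 CPM in model 3 and 4.25 CPM in Rhy 1, against 0.528 to 4.51 CPM (median 1.90). Rhy 1 lay inside the range of the high side for B3gnt6, although above Rhy 2 and Rhy 3. Cmah, which makes the sialic acid Neu5Gc, was at 13.7 to 70.1 CPM in the low and 8.70 to 16.0 CPM in the high libraries, again with Rhy 1 inside the range. Hsd17b14, a steroid dehydrogenase, was at 6.38 to 9.69 CPM in the low and 0.319 to 2.08 CPM in the high libraries, a log2 fold change of 2.86 ± 0.53. Sult1a1, a sulfotransferase of phenols, was at 348 to 456 CPM in the low and 114 to 258 CPM in the high libraries. Acacb, the acetyl-CoA carboxylase whose product restrains entry of fatty acids into mitochondria, had a log2 fold change of 1.43 ± 0.29. Alas1, which starts haem synthesis, was at 307 to 451 CPM in the low and 114 to 240.1 CPM in the high libraries, a log2 fold change of 0.96 ± 0.14. Fkbp5, a co-chaperone induced by glucocorticoids, had 1.03 ± 0.21. Alas1 and Fkbp5 were chosen after their values were seen.

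The other genes of the 15 largest rises were Adam18, Art2a-ps, Cdkl1, Mfap3l, Tesc, Mkx and Tbc1d16. Adam18, a sperm surface protein, was at 1.32 to 5.06 CPM in the low and 0 to 0.845 CPM in the high libraries, the largest log2 fold change of the 15 at 3.57 ± 0.71. Art2a-ps, a pseudogene that can share reads with its functional relative, was at 26.5 to 75.6 CPM in the low and 2.52 to 15.2 CPM in the high libraries. Mfap3l was at 26.6 to 53.2 CPM in the low and 3.64 to 17.5 CPM in the high libraries. Tesc, a calcium-binding protein, and Tbc1d16, a Rab GTPase-activating protein, had log2 fold changes of 1.89 and 1.20, and the call of Tbc1d16 held in 8 of 24 alternatives. All 7 had sides that did not overlap.

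The gene lists gave few calls and several shared directions. Fatty acid oxidation and ketogenesis in mitochondria and peroxisomes, which supply the energy of colonocytes from butyrate, had the same direction throughout. All 23 genes had a log2 fold change above 0, with a median of 0.89 against -0.02 over all genes, and 0 of the 23 passed the threshold. The low libraries lay above every high library for 9 of the 23, where 1.69% of all genes did so. The smallest adjusted p of the list was 0.0812, for the thioesterase Acot2. The summed level of the list was 6549 CPM in control 3, 6838 CPM in model 3 and 6462 CPM in Rhy 1, against 1750.4 to 5833 CPM. The highest of the high libraries was control 2, which was also the library of that side with the least Hoxb13. All 13 fat cell genes tested also had a log2 fold change above 0, with a median of 1.34 and 0 called. Their summed level was 378 to 687 CPM in the low and 242 to 563 CPM in the high libraries, and their part in the fatty acid oxidation values was not tested.

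**Figure D5:**
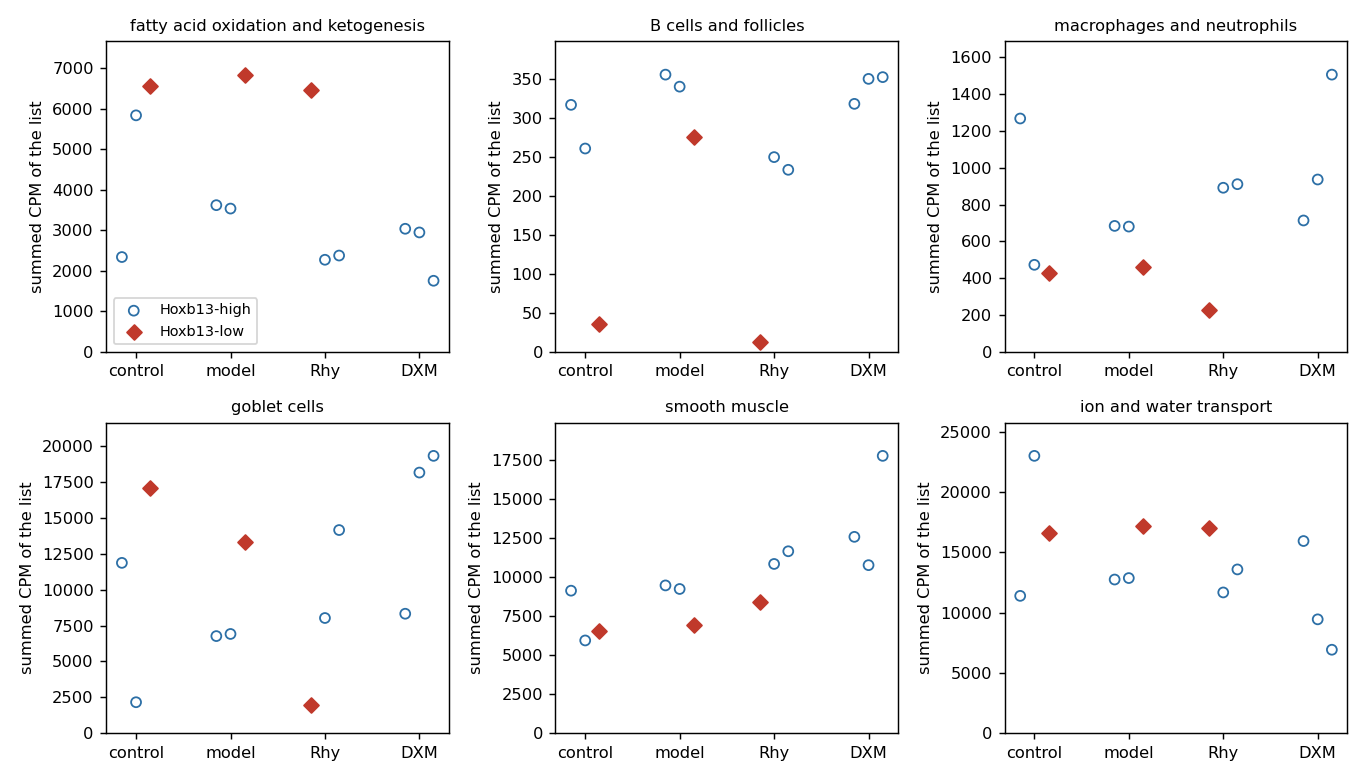
Each panel gives the summed CPM of a gene list in the 12 libraries by treatment group, with red diamonds for the 3 Hoxb13-low and blue circles for the 9 Hoxb13-high libraries. The low libraries lie at 6462 to 6838 CPM for fatty acid oxidation and ketogenesis, above all others, while the B cell list is at 275 CPM in model 3 and at 35.4 and 12.7 CPM in control 3 and Rhy 1.

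The list of goblet cell genes did not follow the split as a sum. Galnt12 was the only member whose sides did not overlap, at 71.0 to 131 CPM in the low and 36.6 to 67.9 CPM in the high libraries. Its adjusted p was 0.0674 by the quasi-likelihood test of edgeR. Other members had log2 fold changes on either side of 0, such as 1.81 for Spdef and -1.15 for Tff3. None of the 22 goblet cell genes was called, and their median log2 fold change was 0.26. Their summed level was 1962 to 17126 CPM in the low and 2142.5 to 19346 CPM in the high libraries. Muc2, the main gel-forming mucin of the colon, was at 7364 CPM in control 3 and 4606 CPM in model 3, above every high library, and at 584 CPM in Rhy 1. The range of Muc2 on the high side was 307 to 2966 CPM. The enteroendocrine list had a median of 0.24 and 0 of 16 called. Its member Insl5, a peptide hormone of colonic L cells, was at 8.85 CPM in control 3, 8.91 CPM in model 3 and 1.67 CPM in Rhy 1, against 11.6 to 208 CPM (median 91.3). The sides of Insl5 did not overlap, and its adjusted p was 0.0929. Insl5 and Pyy, another L cell hormone with a log2 fold change of -1.79 and an adjusted p of 0.106, were the members of that list at the highest mean level. Of the 16, 9 had a log2 fold change above 0. Among them were Gcg, the glucagon gene that L cells also express, at 1.49 ± 0.75 (adjusted p = 0.337), Chgb at 1.28 and Sst at 1.66, chosen after their values were seen.

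Cells of the wall and of the immune system were read through their markers. Of 30 extracellular matrix genes 28, of 20 smooth muscle genes 17 and of 16 macrophage and neutrophil genes 15 had a log2 fold change below 0, with 0 called in each list. The medians were -0.42, -0.32 and -0.71. The summed level of the macrophage and neutrophil list was 226 to 459 CPM in the low and 472 to 1506 CPM in the high libraries, so the sides did not overlap. Cd14, Ly6g and Lyz2 had the highest means of this list on the high side, at 282, 229 and 212 CPM. Their means in the low libraries were 174, 17.6 and 87.5 CPM, and the sides of each overlapped. The neutrophil genes S100a8, S100a9 and Csf3r had means of 1.39, 0.817 and 1.15 CPM on the high side. Cd68 was the only member whose own sides did not overlap, and the part of these cells in the sum was not tested. The smooth muscle list overlapped, at 6531 to 8424 CPM in the low and 5927.5 to 17762 CPM in the high libraries. Of the pancreatic acinar list, 3 of 15 genes passed the filter and Cela1, an elastase also made outside the pancreas, was called lower, with a log2 fold change of -1.02 ± 0.21 and sides that overlapped. The summed level of that list was 62.3 to 79.7 CPM in the low and 75.3 to 358 CPM in the high libraries. The remaining lists held 0 called genes. They were other patterning transcription factors, brush border enzymes and nutrient transporters, microvillus structure, transmembrane mucins, tuft cells, cholesterol synthesis, stem cells and Wnt targets, mitotic cell cycle, enteric neurons and glia, skeletal muscle, plasma cells, T cells, MHC class II antigen presentation and immediate early genes. Their medians ran from -1.31 for the 7 skeletal muscle genes tested to 0.45 for the 13 stem cell and Wnt target genes.

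B cell genes split the low libraries among themselves. All 16 genes of the B cell and follicle list had a log2 fold change below 0, with a median of -2.40 and 0 called. The summed level of the list was 35.4 CPM in control 3, 275 CPM in model 3 and 12.7 CPM in Rhy 1, against 233 to 355 CPM in the high libraries. Control 3 and Rhy 1 thus lay below the high side and model 3 inside it. The low-high difference was then compared among the control, model and Rhy groups with an interaction term. It varied for 6 of 16904 genes (0.0355%) at an adjusted p under 0.05, and for 1714 at an unadjusted p under 0.05. The 6 were Cd79a and Cd79b, the signalling chains of the B cell receptor, Pax5, the factor that sets B cell identity, Pou2af1, a B cell coactivator of octamer-binding factors, the complement receptor Cr2 and the IgM receptor Fcmr. Cd79a was at 3.73 CPM in control 3, 37.9 CPM in model 3 and 0.488 CPM in Rhy 1, against 29.9 to 47.6 CPM on the high side. The log2 difference of Cd79a from the other libraries of its group was -3.77 in control 3, -0.14 in model 3 and -5.57 in Rhy 1. Lymphoid follicles lie in patches along the colon wall, and their part in these differences was not tested. With model 1 and model 2 summed the interaction called 0 genes, with 1003 at an unadjusted p under 0.05. DESeq2 was not run for it. It also called 0 without model 1, model 2, model 3, Rhy 1, Rhy 2, DXM 2 or DXM 3, 2 without Rhy 3, 10 without control 3, 12 without control 2 and 15 without DXM 1.

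The split crossed 3 of the 4 treatment groups and left out DXM, so the treatment comparisons were fitted with and without a term for it. With the term, model against control, Rhy against model and DXM against model each called 0 of 16904 genes by the quasi-likelihood test of edgeR, and without the term the counts were 0 as well. At an unadjusted p under 0.05, model against control gave 1842 genes with the term (10.9%) and 1626 without (9.62%). Rhy against model gave 885 (5.24%) and 628 (3.72%), and DXM against model 1027 (6.08%) and 1300 (7.69%). With the term and model 1 and model 2 summed, these counts were 944, 456 and 393. At that threshold 845 genes pass by chance. These comparisons share the model libraries. In the 9 Hoxb13-high libraries alone, the counts at an adjusted p under 0.05 were 0, 0 and 2. The model group there was only the near-identical model 1 and model 2, so these counts rest on that pair. They were not fitted with the pair summed.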

How the data were processed

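RNA-Seq covered 12 mouse colon libraries, 3 per group, with total counts of 14346478 to 17749716 per library. The authors deposited whole-number read counts per gene without normalization, and FPKM values, which divide the counts by gene length and library size, used here only with limma. The submitters' processing notes name HISAT2 2.0.5, featureCounts 1.5.0-p3, DESeq2 1.16.1 and mm10. Strand use is not stated, so overlapping and antisense genes are uncertain. Groups came from the treatment label, and 0 columns belonged to other samples. The fits used edgeR 4.0.16 under R 4.3.3 (filterByExpr at a minimum count of 10, TMM, two-sided quasi-likelihood test, Benjamini-Hochberg adjustment over 16904 genes, treatment group as covariate), with limma 3.58.1 and DESeq2 1.42.0 as alternatives. The step was also tested on simulated data. The standard error is the log2 fold change divided by the square root of F. CPM uses the column totals. Intervals are exact at 95% and cover counting error only, and a 0 was given a limit of 3 counts over the side.

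Named genes were the Hox genes, the 15 largest rises and falls among called genes with a mean of at least 1 CPM and the low library on the same side within each treatment group, leaving out Gm- and Rik-named genes and receptor segments, and for each list up to 3 called members each way or otherwise the 2 at the highest level. The rule also covered the treatment comparisons, where no gene passed. Some named genes are not reported here. The split, the named genes and the 32 gene lists were chosen with earlier results of these data known. The labels do not say that samples came from separate mice. Alternatives were RLE and upper-quartile scaling, every gene with a count, protein-coding genes only, no covariate, the replicate number as a block, no DXM group, model 1 and 2 summed, DESeq2, limma on log2 FPKM with 1 or 0.1 added, Hoxb13 as a continuous covariate, and each library left out in turn. Promoters came from RefSeq on GRCm38.p6. Hoxb13 and Atp12a had no entry there.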

Additional observations from a re-analysis of the deposited data

Results flagged for a closer look

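The low-high difference varied among the control, model and Rhy groups for 6 of 16904 genes, all of them B cell genes, in edgeR's test of the interaction. The adjusted p was 0.035 for Cd79a, 0.035 for Cd79b, 0.045 for Cr2, 0.0417 for Fcmr, 0.0423 for Pax5 and 0.0423 for Pou2af1. In each of the 6 the difference was largest in Rhy 1 and smallest in model 3. Cd79b was at 3.13 CPM in control 3, 28.6 CPM in model 3 and 0.209 CPM in Rhy 1, against 17.2 to 32.1 CPM in the high libraries. Cr2 was at 1.08, 7.39 and 0 CPM in the same libraries, against 7.06 to 21.2 CPM. Pax5 was at 1.81, 9.76 and 0 CPM, against 10.2 to 15.3 CPM, and Fcmr at 0.663, 11.0 and 0 CPM, against 8.22 to 13.5 CPM. Pou2af1 was at 6.02, 28.2 and 0.767 CPM, against 13.9 to 24.6 CPM, so that model 3 lay above every high library. Each low value is 1 library, and with model 1 and model 2 summed none of the 6 passed.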

How the results depend on the processing

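The 28 higher and 167 lower genes stayed within 1.5 times under RLE scaling, upper-quartile scaling and protein-coding genes alone. Under the other settings they were 581 higher and 1019 lower with every gene with a count, 117 and 336 without the treatment covariate, 18 and 90 without the DXM group, 0 and 15 with model 1 and 2 summed, 296 and 879 with DESeq2, 53 and 149 with limma on log2(FPKM + 1), 49 and 313 with limma on log2(FPKM + 0.1), and 86 and 279 with Hoxb13 as a continuous covariate. The share of lower genes among the calls was 85.6%, and it was 63.7% with every gene with a count, 74.2% without the covariate, 74.8% with DESeq2, 73.8% with limma on log2(FPKM + 1), 76.0% with the block and 76.4% with the continuous covariate. The 6 interaction genes became 1109 with every gene with a count and 0 with model 1 and 2 summed. With every gene with a count, the treatment comparisons with the term gave 741, 312 and 451 genes. These were for model against control, Rhy against model and DXM against model. DXM against model gave 2 in the Hoxb13-high libraries alone, where model 1 and model 2 were the whole model group. Leaving out each library in turn gave 0 to 224 higher, 12 to 367 lower, 0 to 15 interaction genes and 0 to 1 gene in each treatment comparison. The fit on every gene with a count held 29984 genes, and the cause of these moves was not tested.

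Over all groups the replicate numbers did not pair the samples, since the deviations of same-numbered samples correlated at -0.31 to 0.36 (median -0.03), with 6 of 18 over 0.1. The 3 pairs of control and model were all over 0.1, at 0.104 to 0.363, and the highest was control 3 with model 3, which are both Hoxb13-low. With the replicate number as a block, 79 genes were higher and 250 lower, 149 of the 195 among them, and the treatment comparisons gave 0 genes each.

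Of 1648 values of the 69 named genes called, 1180 kept the call, 468 lost it and 0 changed sign. Named genes that were not called changed sign near 0 as follows, in log2 fold change. Without the covariate these were Hoxd9 at -0.080, Pcna at -0.066, Igha at -0.69, Cd74 at 0.22 and Ctss at 0.074. With the replicate block they were Lypd8 at 0.052, Dclk1 at 0.14, Pcna at -0.036, Igha at -0.99 and Ctss at 0.11. Igha was at -0.79 with model 1 and 2 summed, -0.18 with either limma fit and -0.35 with continuous Hoxb13, where Ctss was at 0.028. With limma and 1 or 0.1 as pseudocount, Hoxa10 was at 0.021 and 0.036. When each of the libraries was left out, the ranges were -0.30 to 0.29 for Hoxa10, -0.34 to 0.19 for Hoxa13, -0.30 to 0.45 for Pcna, -2.62 to 0.71 for Igkc, -1.41 to 0.52 for Cd74, -1.99 to 1.45 for Igha, -0.22 to 0.15 for Ctss, -0.050 to 0.55 for Hoxa3, -0.12 to 0.75 for Lrig1, -0.70 to 0.093 for Hoxa4, -2.15 to 0.0089 for Hoxa6, -0.24 to 0.11 for Dclk1, -0.0033 to 0.59 for Hoxd9, -0.34 to 0.67 for Hoxb4, -0.19 to 0.79 for Hoxb5, -0.33 to 1.28 for Hoxd3, -0.30 to 0.53 for Cdhr5, -0.11 to 0.62 for Erbb3, -0.059 to 0.72 for Pnpla2 and -0.40 to 0.099 for Sfn.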
